A study of Mus musculus with 6 samples.

Results

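RNA sequencing of unstimulated bone marrow-derived macrophages (BMDMs) was used here to follow 10 genes for angiogenic and trophic factors, out of 40481 genes in the count table. The set holds *Vegfa*, *Vegfb*, *Pgf*, *Pdgfa*, *Pdgfb*, *Pdgfc*, *Hbegf*, *Igf1*, *Hgf* and *Thbs1*. Its members were listed by name for what their proteins do, with earlier results of these data known. The first 9 encode growth factors, and *Thbs1* encodes thrombospondin-1, a matrix protein that restrains vessel growth. The comparison asks how far the transcripts of these secreted factors differ at rest when myeloid cells carry a deletion of *Scd2*, the gene of stearoyl-CoA desaturase 2, an enzyme that makes monounsaturated fatty acids. Of the set, *Thbs1*, *Vegfa*, *Pdgfa* and *Pdgfb* were lower in Scd2-m/-m BMDMs and *Pdgfc* was higher, while *Igf1*, the most abundant per length, did not pass the test.

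The wild-type group had 3 libraries and the Scd2-m/-m group had 3, with 1 poly(A)-selected library per sample and no stimulus in either. Scd2-m/-m mice came from crossing floxed *Scd2* alleles to lysozyme M-Cre, which drives recombination from the lysozyme M promoter in myelomonocytic cells. The study used male and female mice of 2 to 5 months, but the age and sex behind each library, and whether wild-type mice carried a floxed allele or Cre, could not be assigned from the labels or methods. The labels do not say that replicates came from separate mice or cultures, so the p-values below measure only the spread between these samples. In both genotypes the marrow cells were differentiated in medium with CMG-conditioned supplement, and RNA was extracted from the washed cultures.

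Between 46285176 and 57629638 counts fell on genes in each library. Every total was above the average number of reads per sample that the paper states, so 1 count cannot be taken as 1 read. Levels are given as CPM (counts normalised to a fixed library size) after scaling libraries by the trimmed mean of M values, and as CPM per kb of exon where genes are compared with each other. A gene was called where edgeR's quasi-likelihood test gave a false discovery rate (FDR, Benjamini-Hochberg) below 0.05, and of 14778 genes tested 2585 were called (17.5%). Of the genes tested, 9.65% (1426) were called higher in Scd2-m/-m BMDMs and 7.84% (1159) lower. The targeted gene *Scd2* measured 66.9, 77.8 and 62.7 CPM in wild-type replicates 1 to 3 against 59.5, 38.0 and 39.8 CPM in Scd2-m/-m replicates 1 to 3. All 3 Scd2-m/-m libraries were lower, but the log2 fold change of -0.59 (SE 0.19) had an FDR of 0.1002, and without Scd2-m/-m replicate 1 it was -0.83 with an FDR of 8.87e-05. Counts are given per gene and not per exon, so transcripts that lack the deleted exons may be counted too, which was not tested. The 5 growth factor and thrombospondin calls below also held without that replicate.

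The macrophage markers summed to 38580 to 39390 CPM in wild-type and 22350 to 22840 CPM in Scd2-m/-m libraries. Of 10 tested, 6 were lower (60%, against 7.84% of all genes) and 1 higher (10%, against 9.65%). Without *Lyz2*, described below, the other 9 summed to 16167 to 16478 CPM and 13390 to 13786 CPM, and the Scd2-m/-m mean was 83.4% of wild type. Neutrophil and progenitor markers summed to 52.7 to 70.6 CPM and 123 to 188 CPM. Of 12 tested, 8 were higher (66.7%, against 9.65% of all genes). Most of the sum was *Ccr2* alone, at 47.85 ± 9.57 and 114.6 ± 30.1 CPM. Cell division markers summed to 59.7 to 68.2 CPM and 181 to 205 CPM, with 15 of 15 higher (100%). In wild-type libraries *Prtn3* and *Cenpf*, counted among these rises, were at 0 to 0.26 and 0.16 to 0.37 CPM. They passed the filter on low counts only through the Scd2-m/-m libraries. Of 5 endothelial markers tested, *Vwf* was higher (20%, against 9.65% of all genes) and *Pecam1* lower (20%, against 7.84%). *Cldn5* had 0 counts in all 6 libraries. Endothelial markers summed to 49.9 to 56.3 CPM and 75.7 to 93.4 CPM. Most of that sum was *Vwf* alone, at 43.05 ± 3.04 and 75.01 ± 9.38 CPM, which is also counted among the megakaryocyte and platelet markers. Megakaryocyte and platelet markers summed to 101 to 114 CPM and 116 to 133 CPM. Of 6 tested, *Vwf* was higher (16.7%, against 9.65% of all genes) and *Pf4* lower (16.7%, against 7.84%). Fibroblast and stromal markers stayed between 2.87 and 4.67 CPM, with 0 of 4 tested called by edgeR. The part of these differences in the results below was not tested, and in bulk RNA fewer cells of a type and less RNA per cell cannot be told apart.

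Vascular endothelial growth factors act on receptor tyrosine kinases of endothelial cells and drive the sprouting of vessels, while platelet-derived growth factors recruit and expand pericytes, smooth muscle cells and fibroblasts through their own receptors. Insulin-like growth factor 1 and hepatocyte growth factor support the survival and growth of neighbouring cells, and thrombospondin-1 opposes vessel growth by binding CD36 and CD47 and can also activate latent transforming growth factor beta. Macrophages are a source of many of these factors during tissue repair.

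RefSeq windows before an annotated start (build GRCm38.p6) were found for 7 of the 10 genes, namely *Vegfa*, *Vegfb*, *Pgf*, *Pdgfa*, *Pdgfc*, *Igf1* and *Hgf*, and not for *Pdgfb*, *Hbegf* or *Thbs1*. Those of *Vegfa*, *Vegfb* and *Pdgfc* are shown because *Vegfa* and *Vegfb* are close relatives of which only the former was called, and *Pdgfc* was the only gene of the set called higher. Each is the 250 bases 5′ of the start, written 5′ to 3′ on the gene's strand, with the GC box (GGGCGG on either strand, the site of SP1-family factors) in capitals. The *Vegfa* window is chr17:46032378-46032627 (minus), the *Vegfb* window chr19:6987652-6987901 (minus) and the *Pdgfc* window chr3:81036166-81036415 (plus).
Vegfa: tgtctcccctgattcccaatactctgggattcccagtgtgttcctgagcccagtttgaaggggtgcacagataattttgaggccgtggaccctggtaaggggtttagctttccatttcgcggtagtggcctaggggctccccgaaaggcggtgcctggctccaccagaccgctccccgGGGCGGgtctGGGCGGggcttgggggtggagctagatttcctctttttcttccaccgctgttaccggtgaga
Vegfb: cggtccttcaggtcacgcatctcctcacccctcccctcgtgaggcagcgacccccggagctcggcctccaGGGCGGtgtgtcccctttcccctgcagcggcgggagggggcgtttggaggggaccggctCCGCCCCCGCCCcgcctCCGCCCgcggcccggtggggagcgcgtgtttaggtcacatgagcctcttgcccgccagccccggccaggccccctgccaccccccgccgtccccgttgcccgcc
Pdgfc: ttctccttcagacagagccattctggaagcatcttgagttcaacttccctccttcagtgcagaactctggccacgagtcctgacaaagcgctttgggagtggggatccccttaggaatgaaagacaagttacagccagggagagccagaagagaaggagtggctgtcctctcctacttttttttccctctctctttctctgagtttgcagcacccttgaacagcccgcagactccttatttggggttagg
The *Vegfa* window held 2 GC boxes and 59.2% G and C, the *Vegfb* window 4 GC boxes and 76.4%, and the *Pdgfc* window 0 and 50.8%. A GC box was present in 32.7% of the 32851 windows of the same length. GCGTG, a core letter string of hypoxia response elements, occurred 2 times in the *Vegfb* window, outside its GC boxes, and in 28.2% of all windows, whereas ACGTG (16.6% of all windows) and TATAAA (12.4%) occurred in none of the 3. The table holds another *Vegfa* window, before a start inside the gene (chr17:46025164-46025413, not shown), with 1 GC box, 1 ACGTG and 1 GCGTG. These matches describe letters only and say nothing of binding.

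Of the 10 genes, 8 passed the filter on low counts and were tested, and 2 (*Pgf* and *Hbegf*) were not. Among the 8, 5 were called (62.5%, against 17.5% of all genes), 4 lower (against 7.84% of all genes) and 1 higher (against 9.65%). The same 5 were the genes whose libraries did not overlap between genotypes, a property of 34.9% of all genes tested. The median log2 fold change of the 8 was -0.19 and the median of its size 0.38, against 0.00 and 0.16 over all genes tested. Since only genes with enough counts in some libraries could be tested, these figures cover 8 genes and not the whole set. The set was chosen with earlier results of these data known, so its share called is not that of a set fixed beforehand.

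**Figure D1:**
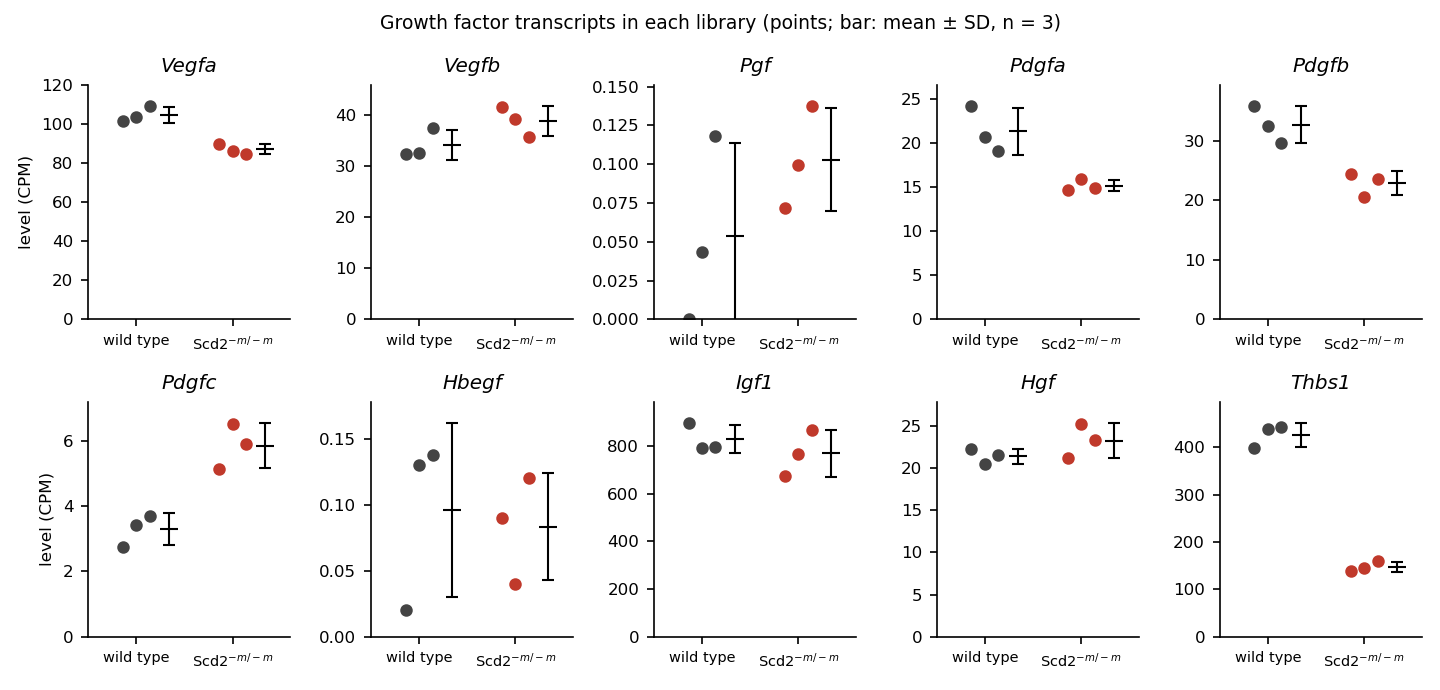
Level of each of the 10 genes in CPM (y axis, from 0, own scale per panel) in the 3 wild-type (grey) and 3 Scd2-m/-m (red) libraries, with the mean ± SD beside the points and cut at 0. The genotypes separate fully for *Vegfa*, *Pdgfa*, *Pdgfb*, *Pdgfc* and *Thbs1*, while *Pgf* and *Hbegf* stay at 0.138 CPM or less.

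*Thbs1* (ENSMUSG00000040152, GRCm38 chr2:118111876-118127133, plus strand) had by far the largest change of the set. It measured 398, 438 and 443 CPM in wild-type replicates 1 to 3 against 139, 144 and 160.1 CPM in Scd2-m/-m replicates 1 to 3. The genotypes lay far apart, and the libraries within each stayed close together. The mean fell from 426 ± 24.9 to 148 ± 11.1 CPM (SD, n = 3 each), to 34.7% of the wild-type level, with a log2 fold change of -1.53 (SE 0.07, 95% interval -1.68 to -1.38, FDR 1.15e-08). By p-value it ranked 6 among the 14778 genes tested, by log2 fold change 42 among the falls, and by CPM lost 22. Each library held at least 7254 counts on the gene, so counting error was small beside the spread between libraries.

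The tested genes whose profile over the 6 libraries lay nearest to that of *Thbs1*, by Euclidean distance of centred log2 CPM, were *Apoe*, *Lyz2* and *Nuak1*, at distances of 0.27, 0.29 and 0.32. *Apoe*, which encodes the lipid carrier apolipoprotein E, fell from 9973 ± 609.7 to 3505 ± 231 CPM (log2 fold change -1.51). *Lyz2*, the lysozyme M gene whose promoter drives Cre in these mice, fell from 22750 ± 584 to 9029 ± 357 CPM (log2 fold change -1.33). *Nuak1*, a kinase related to AMPK, fell from 53.9 ± 0.88 to 20.7 ± 1.30 CPM (log2 fold change -1.38). The closeness was measured over 6 libraries of 2 genotypes, so any gene that fell by a like amount lies near.

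*Vegfa* (ENSMUSG00000023951, GRCm38 chr17:46016993-46032369, minus strand) encodes the main growth factor for vessels, which signals through VEGF receptor 2 (*Kdr*). Its level was 101, 103 and 109 CPM in wild-type replicates 1 to 3 against 89.6, 86.2 and 84.7 CPM in Scd2-m/-m replicates 1 to 3. No Scd2-m/-m library reached a wild-type one, and the gap between the groups was wider than either of them. The mean fell from 105 ± 4.08 to 86.9 ± 2.51 CPM, to 83.0% of wild type, with a log2 fold change of -0.27 (SE 0.06, 95% interval -0.39 to -0.14, FDR 0.00572). The fall was small in size, and by p-value the gene ranked 1092 among those tested.

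*Vegfb* (ENSMUSG00000024962, GRCm38 chr19:6982473-6987651, minus strand) encodes a relative that binds VEGF receptor 1 (*Flt1*) and has little sprouting activity of its own. It measured 32.3, 32.6 and 37.5 CPM in wild-type replicates 1 to 3 against 41.6, 39.1 and 35.6 CPM in Scd2-m/-m replicates 1 to 3. The groups overlapped, since wild-type replicate 3 was above Scd2-m/-m replicate 3. The means were 34.1 ± 2.94 and 38.8 ± 3.00 CPM, with a log2 fold change of 0.18 (SE 0.08, 95% interval 0.01 to 0.35, FDR 0.131), which did not pass the test. Without wild-type replicate 3 the log2 fold change was 0.26 and the FDR 0.0462.

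*Pgf* (ENSMUSG00000004791, GRCm38 chr12:85166635-85177790, minus strand) encodes placental growth factor, which also binds VEGF receptor 1. It received 0, 2 and 6 counts in wild-type and 4, 5 and 8 counts in Scd2-m/-m replicates 1 to 3, or 8 against 17 in all. If 1 count were 1 read, a count of 0 would allow up to 3 counts, about 0.058 CPM in a library. A genotype difference was not detectable at this depth. Counts of 1 to 20 were even in 60.9% to 64.9% of genes in each library, so what 1 count stands for in the deposited table is unclear.

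The ratio of *Vegfa* to *Vegfb*, taken per kb of exon within each library, was 1.18, 1.19 and 1.09 in wild-type replicates 1 to 3 and 0.808, 0.825 and 0.892 in Scd2-m/-m replicates 1 to 3. All 3 wild-type libraries thus held more *Vegfa* than *Vegfb* per length and all 3 Scd2-m/-m libraries held less. Which gene was higher depends on the length used, here all annotated exons together (4285 bases for *Vegfa* and 1605 for *Vegfb*). In CPM, *Vegfa* was above *Vegfb* in every library of both genotypes. The difference of the mean log2 ratios was -0.45, a change of the ratio to 0.731 of wild type, with an exact permutation p of 0.1 (two-sided, adjusted p = 0.2 over 4 ratios). That p is the smallest that 3 against 3 libraries can give, so no ratio could pass 0.05.

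*Pdgfa* (ENSMUSG00000025856, GRCm38 chr5:138976014-138997370, minus strand) encodes the PDGF A chain, whose dimer acts on PDGF receptor alpha. It measured 24.2, 20.6 and 19.1 CPM in wild-type replicates 1 to 3 against 14.6, 15.9 and 14.9 CPM in Scd2-m/-m replicates 1 to 3. The groups did not overlap, and wild-type replicate 1 was the highest. The mean fell from 21.3 ± 2.62 to 15.1 ± 0.64 CPM, to 71.1% of wild type, with a log2 fold change of -0.49 (SE 0.09, 95% interval -0.69 to -0.30, FDR 0.00206). An antisense gene, *6330403L08Rik*, shares an exonic stretch of 354 bases with *Pdgfa* on the other strand. That gene fell as well, from 14.7 ± 0.96 to 9.45 ± 1.00 CPM (log2 fold change -0.64, FDR 0.000531), and as the use of strand in counting is not given, reads of the pair in that stretch cannot be told apart.

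*Pdgfb* (ENSMUSG00000000489, GRCm38 chr15:79995874-80014977, minus strand) encodes the B chain, which acts on both PDGF receptors and holds pericytes to vessels. It measured 35.9, 32.5 and 29.7 CPM in wild-type replicates 1 to 3 against 24.5, 20.6 and 23.7 CPM in Scd2-m/-m replicates 1 to 3. Again no Scd2-m/-m library reached the lowest wild-type library. The mean fell from 32.7 ± 3.10 to 22.9 ± 2.04 CPM, to 70.1% of wild type, with a log2 fold change of -0.51 (SE 0.09, 95% interval -0.70 to -0.33, FDR 0.00093).

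The log2 fold changes of the A and B chains were thus -0.49 and -0.51. The ratio of *Pdgfa* to *Pdgfb* per kb of exon was 0.899, 0.846 and 0.857 in wild-type replicates 1 to 3 and 0.799, 1.03 and 0.840 in Scd2-m/-m replicates 1 to 3. The Scd2-m/-m ratios spread to both sides of the wild-type ratios, and the difference of the mean log2 ratios was 0.03 (exact permutation p = 1, two-sided).

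*Pdgfc* (ENSMUSG00000028019, GRCm38 chr3:81036416-81214040, plus strand) encodes a PDGF that is secreted in a latent form and must be cleaved before it can bind PDGF receptor alpha. It went the other way from *Pdgfa* and *Pdgfb*, with 2.76, 3.43 and 3.70 CPM in wild-type replicates 1 to 3 against 5.13, 6.51 and 5.90 CPM in Scd2-m/-m replicates 1 to 3. Every Scd2-m/-m library was above every wild-type library. The mean rose from 3.30 ± 0.48 to 5.84 ± 0.69 CPM, 1.77-fold, with a log2 fold change of 0.82 (SE 0.15, 95% interval 0.51 to 1.14, FDR 0.00161). The gene rested on 137 to 188 counts in wild-type and 286 to 343 counts in Scd2-m/-m libraries, the fewest of the 8 genes tested.

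*Hbegf* (ENSMUSG00000024486, GRCm38 chr18:36504927-36515805, minus strand) encodes heparin-binding EGF-like growth factor, a membrane-anchored ligand of the EGF receptor that is released by cleavage. It received 1, 6 and 7 counts in wild-type and 5, 2 and 7 counts in Scd2-m/-m replicates 1 to 3, 14 in each genotype. No difference was detectable at this depth. When every gene with a count was kept, *Hbegf* gave a log2 fold change of -0.18 (SE 0.98, FDR 0.947) and *Pgf* one of 0.90 (SE 1.07, FDR 0.667), with errors as large as the values or larger.

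*Igf1* (ENSMUSG00000020053, GRCm38 chr10:87858265-87937042, plus strand) encodes insulin-like growth factor 1, the trophic ligand of the IGF1 receptor. It measured 897, 794 and 798 CPM in wild-type replicates 1 to 3 against 674, 765 and 869 CPM in Scd2-m/-m replicates 1 to 3. The groups overlapped, and the Scd2-m/-m libraries spread most. The means were 829.6 ± 58.2 and 769 ± 97.4 CPM, with a log2 fold change of -0.11 (SE 0.09, 95% interval -0.30 to 0.08, FDR 0.441). The interval leaves room for a fall of up to 0.30 on the log2 scale.

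*Hgf* (ENSMUSG00000028864, GRCm38 chr5:16553495-16620152, plus strand) encodes hepatocyte growth factor, which is made as an inactive precursor and acts on the receptor MET. It measured 22.2, 20.5 and 21.6 CPM in wild-type replicates 1 to 3 against 21.1, 25.3 and 23.4 CPM in Scd2-m/-m replicates 1 to 3. The groups overlapped, since Scd2-m/-m replicate 1 lay within the wild-type range. The means were 21.4 ± 0.90 and 23.3 ± 2.06 CPM, with a log2 fold change of 0.12 (SE 0.08, 95% interval -0.05 to 0.29, FDR 0.345). The ratio of *Igf1* to *Hgf* per kb of exon was 26.9 to 29.3 in wild-type and 21.98 to 27.0 in Scd2-m/-m libraries, overlapping, with a difference of mean log2 ratios of -0.23 (exact permutation p = 0.2, two-sided, adjusted p = 0.267 over 4 ratios).

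**Figure D2:**
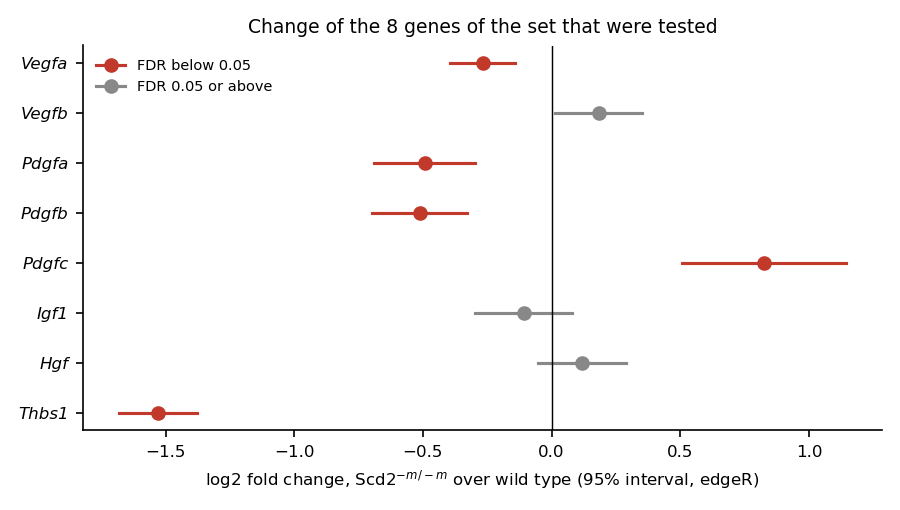
Log2 fold change of Scd2-m/-m over wild type (x axis) with its 95% interval from edgeR for the 8 genes tested, red where the FDR was below 0.05 and grey otherwise. *Thbs1* lies farthest from 0, at -1.53, *Pdgfa* and *Pdgfb* lie side by side at -0.49 and -0.51, and *Pdgfc* is the only red point to the right of 0.

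The genes also differed widely in level. Per kb of exon, the wild-type order was *Igf1* (mean 83.8 CPM per kb), *Thbs1* (70.2), *Vegfa* (24.4), *Vegfb* (21.3), *Pdgfb* (7.86), *Pdgfa* (6.82), *Hgf* (2.98), *Pdgfc* (0.65), *Hbegf* (0.020) and *Pgf* (0.019). Neighbours in this order did not overlap between libraries, except *Pdgfb* with *Pdgfa* and *Hbegf* with *Pgf*. In Scd2-m/-m libraries *Igf1* stayed first (77.7 CPM per kb), while *Thbs1* (24.3) came down to the level of *Vegfb* (24.2), and the ranges of those last 2 overlapped. *Vegfa* (20.3) then lay below *Vegfb* in every library, followed by *Pdgfb* (5.50), *Pdgfa* (4.85), *Hgf* (3.24) and *Pdgfc* (1.15). Lengths are those of all annotated exons of a gene together, so the order rests on that choice of length.

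Summed per kb of exon, the 10 genes reached 219.7, 215 and 219 CPM per kb in wild-type replicates 1 to 3 and 152, 160.4 and 171 CPM per kb in Scd2-m/-m replicates 1 to 3. The sums of the genotypes did not overlap. *Thbs1* made up 29.8%, 33.6% and 33.2% of the sum in wild-type replicates 1 to 3 and 15.0%, 14.8% and 15.4% in Scd2-m/-m replicates 1 to 3. *Igf1* made up 36.7% to 41.2% in wild-type and 44.7% to 51.3% in Scd2-m/-m libraries, although its own level was not called. Shares of 1 sum depend on each other, and that of *Vegfb* was also higher, at 9.15% to 10.7% and 13.0% to 17.0%. The ratio of *Vegfa* to *Thbs1* per kb of exon was 0.361, 0.335 and 0.349 in wild-type replicates 1 to 3 and 0.915, 0.847 and 0.7499 in Scd2-m/-m replicates 1 to 3. This ratio of a vessel growth factor to a vessel growth inhibitor was higher in all 3 Scd2-m/-m libraries, by 1.26 on the log2 scale or 2.40-fold (exact permutation p = 0.1, two-sided, adjusted p = 0.2 over 4 ratios). It restates the falls of both genes given above, of which that of *Thbs1* was the larger, and is no separate result.

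**Figure D3:**
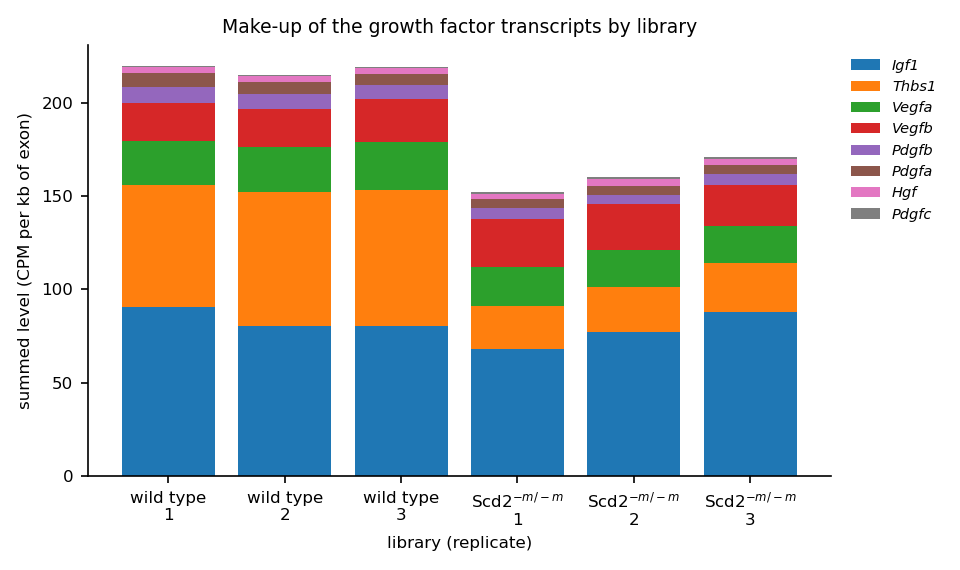
Stacked levels of the 8 tested genes in CPM per kb of exon (y axis, from 0) in each of the 6 libraries (x axis), 1 bar per library. The *Thbs1* segment takes 29.8% to 33.6% of each wild-type bar and 14.8% to 15.4% of each Scd2-m/-m bar, and the bars are lower in Scd2-m/-m libraries.

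**Figure D4:**
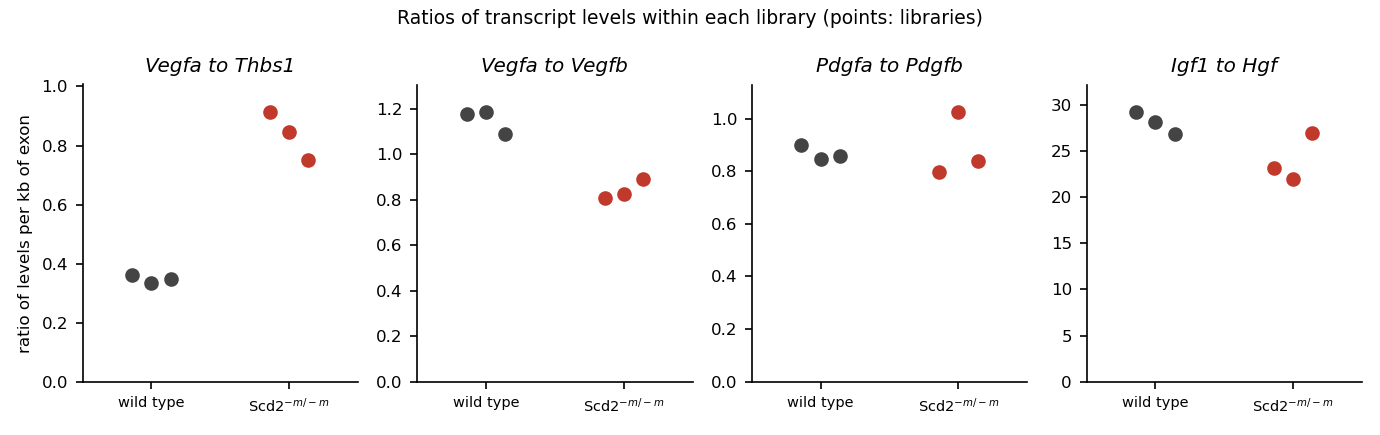
Ratios of *Vegfa* to *Thbs1*, *Vegfa* to *Vegfb*, *Pdgfa* to *Pdgfb* and *Igf1* to *Hgf* in each library, from levels per kb of exon (y axis, from 0, own scale per panel), with wild-type libraries in grey and Scd2-m/-m libraries in red. The first 2 ratios separate the genotypes and the last 2 overlap.

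The other genes of these pathways were read from 7 lists, of which 21 genes of 91 tested were called (23.1%, against 17.5% of all genes). Of the other ligands of the VEGF, PDGF and EGF families, all 10 in the table had means below 1 CPM, *Areg* and *Ereg* had 0 counts in all 6 libraries, and neither of the 2 tested (*Vegfc* and *Egf*) was called. Genes named below that fall outside the naming rule, namely *Ang*, *Pros1*, *Tgfb1*, *Calr*, *Igf1r*, *Hpse*, *Col18a1*, *Pf4*, *Hif1a*, *Egln1*, *Slc2a1*, *Ndrg1* and those named as not called or not tested, were chosen after their values were seen.

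Among 20 receptors and co-receptors tested, 2 were higher (10%, against 9.65% of all genes) and 1 lower (5%, against 7.84%), so the share called was near that of all genes, and the median log2 fold change was -0.01. *Igf1r*, the receptor for *Igf1*, measured 13.6, 14.7 and 15.4 CPM in wild-type replicates 1 to 3 against 9.28, 9.79 and 10.5 CPM in Scd2-m/-m replicates 1 to 3. Every Scd2-m/-m library thus lay below every wild-type one. The fall of *Igf1r* was 0.56 on the log2 scale (SE 0.09, FDR 0.000742), beside a ligand that was not called. *Calr*, which encodes calreticulin, a partner of thrombospondin-1 at the cell surface, rose from 428 ± 6.03 to 499.7 ± 26.1 CPM (FDR 0.0222), and *Erbb2*, the co-receptor of the EGF family, rose from a mean of 0.12 to 0.42 CPM (FDR 0.0334). At these levels *Erbb2* passed the filter on low counts only through the Scd2-m/-m libraries. With 10 counts required in every library, 2 of 19 genes of this list tested were called. The thrombospondin-1 receptors *Cd36* (428 ± 102 and 494 ± 56.6 CPM, FDR 0.510) and *Cd47* (559 ± 77.2 and 517 ± 23.3 CPM, FDR 0.440) were not called. *Kdr* (7.01 ± 0.13 and 8.54 ± 0.52 CPM, FDR 0.0690), the VEGF co-receptor *Nrp1* (275.5 ± 26.6 and 322 ± 31.5 CPM, FDR 0.0814) and *Pdgfrb* (1.92 ± 0.34 and 1.29 ± 0.18 CPM, FDR 0.0812) were not called either, and *Flt1*, *Met* and *Egfr* had means below 1 CPM. The count of called receptors was 1 without wild-type replicate 2 or Scd2-m/-m replicate 2 and 5 without wild-type replicate 1 or replicate 3.

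Of the proteins that bind insulin-like growth factors, *Igfbp4* was the only binding protein proper that was tested, and it fell. *Igfbp4*, which encodes an inhibitory carrier of IGF1, measured 766, 834 and 921 CPM in wild-type replicates 1 to 3 against 638, 618 and 629 CPM in Scd2-m/-m replicates 1 to 3. No libraries overlapped, and the log2 fold change was -0.42 (SE 0.07, FDR 0.00110). The other gene of that list tested, *Igf2bp2*, encodes an RNA-binding protein and was not called. Without wild-type replicate 1, 2 genes of the list were called.

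Among 20 genes for the release and activation of the ligands, 2 were lower (10%, against 7.84% of all genes) and 1 higher (5%, against 9.65%), again a share near that of all genes, and the median log2 fold change was -0.05. *Mmp9*, a matrix protease that frees matrix-bound VEGF, fell from 51.4 ± 9.17 to 16.7 ± 0.86 CPM (log2 fold change -1.62, FDR 7.07e-06). *Mmp14*, a membrane-anchored protease, fell from 87.1 ± 4.54 to 40.4 ± 2.22 CPM (log2 fold change -1.11, FDR 1.32e-07). *Hpse*, the heparanase that releases heparan sulfate-bound factors, rose from 126 ± 11.9 to 187 ± 9.81 CPM (log2 fold change 0.57, FDR 9.69e-05). *Furin*, a protease that processes precursors of growth factors, was at 300.2 ± 25.8 and 291.5 ± 22.7 CPM and was not called. The count of called genes was 5 without wild-type replicate 3.

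Among the other thrombospondins and inhibitors of angiogenesis, 3 of 12 tested were lower (25%, against 7.84% of all genes) and 0 higher (against 9.65%), and the median log2 fold change was -0.15. *Col18a1*, the collagen from which the inhibitor endostatin is cut, fell from 196 ± 30.1 to 110.2 ± 9.47 CPM (log2 fold change -0.83, FDR 0.000714). *Pf4*, a platelet chemokine with angiostatic activity, fell from 54.3 ± 4.81 to 40.8 ± 1.41 CPM (log2 fold change -0.41, FDR 0.00126). *Cxcl9*, an interferon-induced angiostatic chemokine, fell from 1.498 ± 0.18 to 0.61 ± 0.23 CPM (log2 fold change -1.28, FDR 0.00734). Of the relatives of *Thbs1*, *Thbs3* was at 0.37 ± 0.06 and 0.65 ± 0.03 CPM (FDR 0.109), and *Thbs2* and *Thbs4* had too few counts to be tested. The count of called genes in this list was 6 without wild-type replicate 3 and 5 without Scd2-m/-m replicate 3.

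Among 16 other angiogenic or trophic ligands tested, 4 were higher (25%, against 9.65% of all genes) and 2 lower (12.5%, against 7.84%), and the median log2 fold change was 0.14. *Angptl2*, which encodes an angiopoietin-like protein, measured 10.7, 8.48 and 7.02 CPM in wild-type replicates 1 to 3 against 28.4, 25.1 and 26.5 CPM in Scd2-m/-m replicates 1 to 3. This rise, of 1.61 on the log2 scale (SE 0.12, FDR 3.90e-06), was the largest in the list after that of *Fgf1*. *Ang*, the gene of the ribonuclease angiogenin, rose from 6.01 ± 0.50 to 10.2 ± 0.62 CPM (FDR 0.000240), and *Pros1*, which encodes the TAM receptor ligand protein S, rose from 37.7 ± 4.30 to 49.6 ± 4.78 CPM (FDR 0.00802). *Fgf1* was called higher at levels of 0.02 to 0.04 CPM in wild-type and 0.22 to 0.29 CPM in Scd2-m/-m libraries. At these levels *Fgf1* passed the filter on low counts only through the Scd2-m/-m libraries. With 10 counts required in every library, 5 of 14 genes of this list tested were called. *Tgfb1*, whose latent protein thrombospondin-1 can activate, fell from 688 ± 7.21 to 589 ± 16.8 CPM (log2 fold change -0.22, FDR 0.0180), and *Tgfb3* fell from 1.44 ± 0.50 to 0.65 ± 0.18 CPM (FDR 0.0183).

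Among 19 regulators and targets of the hypoxia response, the pathway best known for raising *Vegfa*, 4 were lower (21.1%, against 7.84% of all genes) and 1 higher (5.26%, against 9.65%), and the median log2 fold change was 0.00. *Hif1a*, the oxygen-regulated subunit of the factor, fell from 114.5 ± 6.84 to 81.7 ± 9.94 CPM (log2 fold change -0.49, FDR 0.00114). *Egln3*, one of the prolyl hydroxylases that mark HIF for degradation, fell from 3.15 ± 1.17 to 1.11 ± 0.27 CPM (log2 fold change -1.496, FDR 0.00263), and *Egln1*, another, fell from 43.1 ± 1.77 to 35.5 ± 0.07 CPM (FDR 0.00600). *Slc2a1*, the glucose transporter gene, fell from 45.8 ± 8.83 to 32.7 ± 3.15 CPM (FDR 0.0346), and *Ndrg1*, a gene induced by hypoxia, rose from 62.5 ± 3.78 to 78.1 ± 2.15 CPM (FDR 0.00289). The other genes of the list that were tested were not called.

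**Figure D5:**
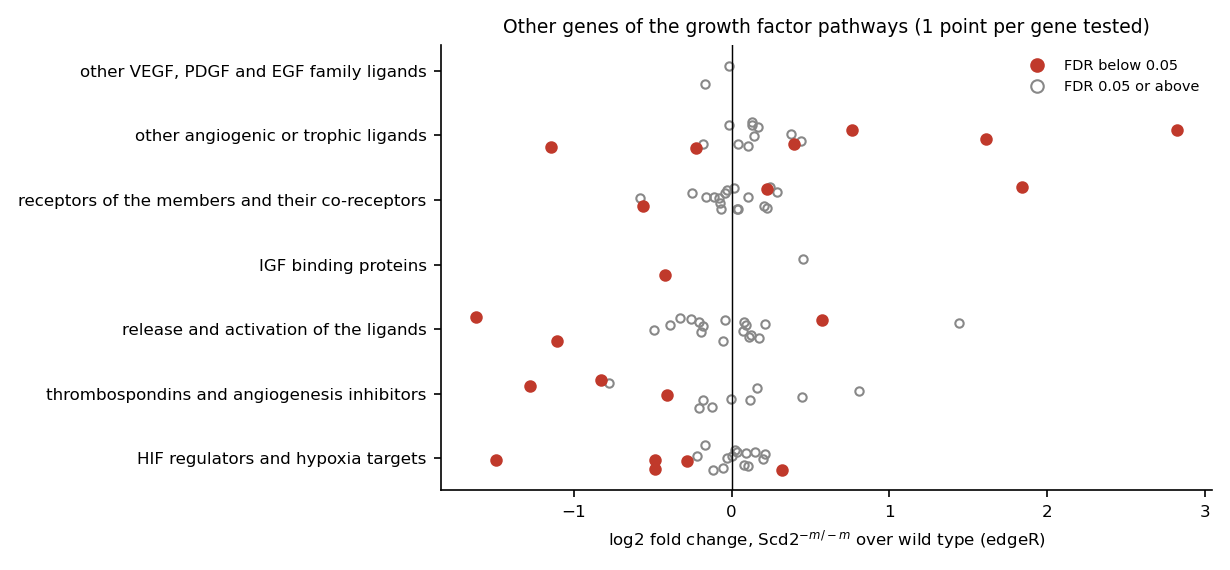
Log2 fold change of Scd2-m/-m over wild type (x axis, edgeR) for each tested gene of the 7 pathway lists (rows), filled red where the FDR was below 0.05 and open otherwise, with vertical scatter for legibility only. The called genes lie on both sides of 0 in the other angiogenic or trophic ligand, receptor, release and hypoxia lists. They lie to the left in the lists of IGF binding proteins and of angiogenesis inhibitors. The list of other VEGF, PDGF and EGF family ligands has no called gene.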

How the data were processed

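Poly(A)-selected RNA of 3 wild-type and 3 Scd2-m/-m BMDM samples was sequenced. Reads were mapped by the authors with STAR on the primary assembly of Ensembl (GRCm38), and the deposited values used here are raw counts on each gene. For read counting, the tool and strand setting were not given in the sources used here. A second deposited table held the authors' own comparison (fold changes, confidence limits, p-values, test statistics and log2 CPM) and was not used.

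Repeated entries (276 of 40757) were removed, leaving 40481 genes. The counts were tested with edgeR 4.0.16 in R 4.3.3 (filterByExpr, TMM factors of 0.979 to 1.02, robust quasi-likelihood fit, genotype alone as the term) over 14778 genes, with Benjamini-Hochberg adjustment. Standard errors (SE) were taken as the absolute log2 fold change over the root of the F statistic. The scripts were tested on simulated data. Coordinates and exonic lengths are those of GENCODE for GRCm38, and promoter windows from RefSeq (GRCm38.p6). Ratios of per-length levels were compared with exact permutation tests over the 6 libraries.

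The 10 genes and all lists were chosen with earlier results of these data known. Named genes are the 10, *Scd2*, every called gene of a pathway list with an absolute log2 fold change above 1 (at most 6), or else at most 2 called genes, those of smallest p, and the 3 profiles nearest to any of the 10 that changed by more than 1. The alternatives were RLE factors, DESeq2 1.42.0, limma-voom (limma 3.58.1, statmod 1.5.0) with and without quality weights, 2 other filters, the replicate number as a block, and leaving out each library.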

Additional observations from a re-analysis of the deposited data

How the results depend on the processing

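The calls of *Vegfa*, *Pdgfa*, *Pdgfb*, *Pdgfc* and *Thbs1* held in all 13 alternatives, with log2 fold changes of -0.29 to -0.24, -0.57 to -0.39, -0.59 to -0.44, 0.71 to 0.92 and -1.59 to -1.49, and the sign of all 8 tested genes held too. The largest FDR of *Vegfa* was 0.0459. With limma-voom and quality weights *Vegfb* (0.21, FDR 0.0144), *Hgf* (0.21, FDR 0.0284) and *Scd2* (-0.82, FDR 0.0215) were called as well, and the calls rose to 4585 over all genes and 34 in the pathway lists. Leaving out 1 library gave 1440 to 2567 calls over all genes, with the lowest without Scd2-m/-m replicate 2 and 1490 without wild-type replicate 2, and log2 fold changes of 0.13 to 0.26 for *Vegfb* and -0.83 to -0.48 for *Scd2*. Over the same 6 omissions, the genotype difference in the log2 ratio of *Pdgfa* to *Pdgfb* ranged from -0.0815 to 0.1002 and changed sign without Scd2-m/-m replicate 2. The cause was not tested in any of these. No pairing of samples by replicate number was seen, though with 3 libraries per genotype the check is weak. Correlations of deviations were 0.05, -0.02 and 0.04 between libraries of the same number and -0.074 to 0.041 between the others. The fit with the replicate block called 2974 genes and 5 of the 10. The count called in a single list moved by over 1.5 times in 18 of 91 pairs of a list and an alternative. *Pgf* and *Hbegf* were limited by depth, and *Pdgfc* rested on the fewest counts of those tested.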
